A study of Mus musculus with 4 samples.

Results

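Fatty acid synthase and the genes of de novo lipogenesis were followed through single nuclei sorted from the mouse hippocampus. The group comprised 10 genes, listed by symbol and matched to Ensembl identifiers, and all 10 were among the 25567 genes of each count table. They were Fasn, Acaca, Acacb, Acly, Acss2, Scd1, Scd2, Srebf1, Thrsp and Mlycd, all annotated as protein-coding. Nuclei came from animals aged 8.5 months that were either wild type (WT) or Fasn-R1812W, and the labels do not say whether Fasn-R1812W animals carry 1 or both altered copies, how many animals were pooled, or their strain. In both genotypes nuclei were sorted through 1 of 2 gates. NeuN+ nuclei were stained for NeuN, a protein of neuronal nuclei. EdU+ nuclei had taken up the thymidine analogue EdU, injected at 100 mg per kg on 3 days and followed by isolation on day 4, a label of cells that made DNA in that time. Each combination of gate and genotype had 1 Smart-seq2 library, in which whole transcripts of a nucleus are copied in a well of its own.

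De novo lipogenesis turns acetyl-CoA into fatty acids. Acly makes cytosolic acetyl-CoA from citrate and Acss2 makes it from acetate, the carboxylases Acaca and Acacb convert it to malonyl-CoA, and Fasn joins these units into palmitate. Scd1 and Scd2 then place a double bond, Mlycd breaks malonyl-CoA down again, Srebf1 encodes the SREBP-1 transcription factors that switch the pathway on, and Thrsp encodes a small protein linked to lipogenic activity in liver and fat. In the adult hippocampus the pathway is known for its part in neural stem and progenitor cells and in the membrane building of the oligodendrocyte lineage.

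The alteration named in the genotype label falls inside Fasn itself, so its place in the reference is shown first. The codon of R1812W in the main Fasn transcript of GENCODE M21, counted from the start codon, is CGT, an arginine codon, and lies in exon 32 of 43 on the minus strand of chromosome 11 at 120811399 to 120811401 of GRCm38. The 93 transcript bases around it, all within that exon, are printed with the codon in capitals.
Fasn, R1812W codon: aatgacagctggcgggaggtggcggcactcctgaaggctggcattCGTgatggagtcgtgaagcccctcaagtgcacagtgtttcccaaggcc
On the mouse build GRCm38, Fasn spans chr11:120805846-120824547, and 3 further members lie on the same chromosome, Acly at chr11:100476353-100528000, Srebf1 at chr11:60199089-60222581 and Acaca at chr11:84129672-84401651. Scd1 at chr19:44394455-44407879 and Scd2 at chr19:44293674-44306864 are neighbours. Acss2 lies at chr2:155517948-155585724, Acacb at chr5:114146535-114250761, Thrsp at chr7:97412938-97417730 and Mlycd at chr8:119394878-119411102.
The deposited values count reads per gene and carry no base calls, so they do not show which nuclei express the altered codon.

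Promoter windows of 300 bases from RefSeq (GRCm38.p6), reaching from 250 bases before to 50 after an annotated start, were found for 8 of the 10 genes. The windows of Fasn, Srebf1 and Thrsp are shown because these genes had the clearest patterns across cell classes described further on. Capitals mark CCAAT, the sequence that the factor NF-Y is known to bind, and GGGCGG, a GC box, on either strand.
Fasn, chr11:120824498-120824797, minus strand: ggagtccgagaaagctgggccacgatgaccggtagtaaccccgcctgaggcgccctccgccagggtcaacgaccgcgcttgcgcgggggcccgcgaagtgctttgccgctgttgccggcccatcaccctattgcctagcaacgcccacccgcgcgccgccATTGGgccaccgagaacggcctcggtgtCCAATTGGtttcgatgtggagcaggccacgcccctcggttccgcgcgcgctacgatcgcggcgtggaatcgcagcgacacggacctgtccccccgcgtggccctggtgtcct
Srebf1, chr11:60222532-60222831, minus strand: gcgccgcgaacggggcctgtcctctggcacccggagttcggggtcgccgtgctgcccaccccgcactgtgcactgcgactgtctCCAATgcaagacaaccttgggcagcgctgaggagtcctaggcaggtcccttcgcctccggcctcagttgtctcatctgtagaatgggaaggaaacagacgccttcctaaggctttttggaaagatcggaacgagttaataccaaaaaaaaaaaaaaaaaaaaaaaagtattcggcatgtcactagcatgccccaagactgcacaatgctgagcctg
Thrsp, chr7:97417501-97417800, minus strand: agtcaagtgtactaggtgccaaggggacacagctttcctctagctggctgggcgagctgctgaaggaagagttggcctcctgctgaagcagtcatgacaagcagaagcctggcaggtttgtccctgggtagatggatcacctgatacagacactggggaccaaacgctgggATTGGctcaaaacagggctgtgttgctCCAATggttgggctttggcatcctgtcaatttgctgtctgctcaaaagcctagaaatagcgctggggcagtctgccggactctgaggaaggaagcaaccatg
The Fasn window held 3 copies of CCAAT, 2 of them overlapping on opposite strands, the Thrsp window 2 and this Srebf1 window 1. Of the 10 windows of these 8 genes, 8 held CCAAT, while 37.4% of the 32851 promoter windows of the same length held it. GGGCGG was found in 4 of the 10, those of Acss2 and Acly and both further Srebf1 windows, and in 35.7% of all windows. Neither the sterol response motif TCACNCCAC, present in 1.24% of all windows, nor the E-box CACGTG, present in 7.15%, occurred in the members' windows. These are matches of letters only.

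Nuclei were kept when they had 50000 or more reads spread over 1000 or more genes. Of 384 wells per library, this left 314 WT and 301 Fasn-R1812W nuclei of the NeuN+ gate. The EdU+ gate had 167 WT and 348 Fasn-R1812W nuclei. Their median depth was 213337, 175328, 80771 and 224967 reads, and the median number of genes was 4396, 4417, 1298 and 3006. All 4 tables used the same 384 index pairs. The EdU+ Fasn-R1812W library stood apart in its low values. In it, 51.7% of all values above 0 were 1 or 2 reads, against 12.6% to 21.5% in the other libraries. Pdgfra, which marks oligodendrocyte precursors, had a read in 59 of its 60 microglia-like nuclei (32.4 CPM) and in 0 of the 6 such nuclei of EdU+ WT. Shares of nuclei with a single read were therefore not read as expression, and shares with at least 3 reads are given. The summed level of the neuronal list was 7181 and 6924 CPM in the NeuN+ libraries and 1444 and 948 CPM in the EdU+ libraries. EdU uptake itself cannot be read from the counts; 16 genes of mitosis and the cell cycle summed to 120 and 144 CPM in NeuN+ and 716 and 489 CPM in EdU+. The summed level of the oligodendrocyte precursor list was 444 and 376 CPM in the NeuN+ libraries and 15570 and 12880 CPM in the EdU+ libraries.

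Levels are given as CPM, the reads of a gene per 1000000 nuclear-encoded reads after adding up all kept nuclei of the library. The order is always NeuN+ before EdU+ and, within each gate, WT before Fasn-R1812W. Fasn stood at 35.3, 31.7, 167 and 104 CPM. Both EdU+ libraries lay above both NeuN+ libraries, 4.62-fold in WT and 3.22-fold in Fasn-R1812W after a prior of 1 CPM. The WT log2 ratio of 2.21 fell to 1.48 under a relaxed nucleus filter of 300 genes and 20000 reads. Scd2, the desaturase that predominates in brain, stood at 251, 264, 1180 and 802 CPM. Again both EdU+ libraries were above both NeuN+ libraries, and per kilobase of exon Scd2 was the highest of the 10 genes in each library at 46.0, 48.4, 216 and 147 CPM per kb. Srebf1 stood at 31.5, 22.4, 161 and 103 CPM, which placed its EdU+ libraries above both NeuN+ ones, although its WT log2 ratio of 2.32 became 1.44 under the relaxed filter. Acss2 went the other way, with 92.4, 80.2, 12.9 and 21.9 CPM, and its groups did not overlap. Such separation was common: of the 16015 genes tested below, 28.2% had both EdU+ libraries above both NeuN+ ones and 30.9% had both below. The relaxed filter changed the WT log2 ratio of Acss2 from -2.75 to -1.08.

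The remaining genes that were tested gave smaller log2 differences between gates in the fit below. Acly, Scd1, Thrsp and Mlycd also had both EdU+ libraries above both NeuN+ ones, Mlycd by a narrow margin. For Mlycd and Thrsp this separation was lost when the top nucleus of the gene was left out. The log2 ratio of EdU+ over NeuN+ was then -0.11 in WT and -0.84 in Fasn-R1812W for Mlycd. For Thrsp it was 1.35 and -0.004. Under the relaxed filter the Mlycd ratios were -0.24 and -0.007. Acly stood at 58.3, 49.4, 95.7 and 105 CPM, so that its 2 EdU+ libraries lay above both NeuN+ ones. Scd1, the desaturase best known from liver, was low throughout at 7.89, 4.60, 24.8 and 11.2 CPM. Acaca, the cytosolic carboxylase, stood at 75.1, 74.7, 104 and 56.4 CPM, with EdU+ WT the highest and EdU+ Fasn-R1812W the lowest. Thrsp stood at 17.6, 33.8, 62.5 and 37.6 CPM and Mlycd at 27.6, 30.9, 46.0 and 31.4 CPM; in both, the EdU+ Fasn-R1812W library lay close to the NeuN+ Fasn-R1812W library. Acacb, the carboxylase at the mitochondrial membrane, was close to absent, with 1.07, 0.527, 0 and 0.517 CPM, where the 0 allows up to 0.200 CPM (3 reads). Per kilobase, Acacb was the lowest of the 10 genes in all 4 libraries.

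**Figure D1:**
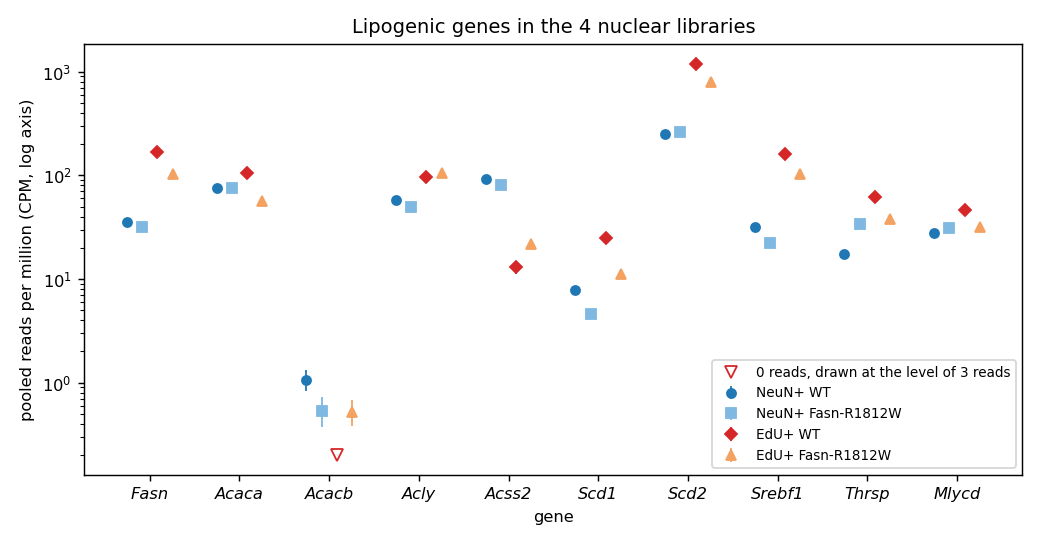
Pooled level of the 10 genes in each of the 4 libraries, in reads per 1000000 on a log axis, with 95% Poisson intervals that cover counting error only. Fasn, Scd2 and Srebf1 sit higher in both EdU+ libraries (red and orange) than in both NeuN+ libraries (blue), and Acss2 lower. Acly, Scd1, Thrsp and Mlycd also sit higher in both EdU+ libraries, Mlycd by a narrow margin. For Thrsp and Mlycd this was lost without the top nucleus of the gene.

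The gates were compared across all genes with edgeR's quasi-likelihood test, 2 libraries against 2 with genotype as a second term. Scd2 and Srebf1 passed the threshold of an adjusted p of 0.05, 2 of the 9 members tested, where 6.72% of the 16015 genes tested passed in either direction, 3.9% as higher and 2.82% as lower in EdU+. Scd2 was higher in EdU+ by a log2 difference of 1.89 (SE 0.30, adjusted p = 0.0219). Srebf1 was higher by 2.25 (SE 0.43, adjusted p = 0.0365). Fasn missed the threshold with a log2 difference of 1.95 (SE 0.42, adjusted p = 0.0527), as did Acss2 with -2.38 (SE 0.57, adjusted p = 0.0677). Of the other members tested, Scd1, Thrsp, Acly, Mlycd and Acaca gave log2 differences of 1.44, 0.97, 0.88, 0.36 and 0.01 with adjusted p from 0.311 to 0.995. Acacb did not reach 1 CPM in 2 libraries and was not tested. The median log2 difference was 0.97 over the 9 members and -0.12 over all genes tested, and 8 of the 9 members were positive against 45.8% of all genes.

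The calls sat close to the threshold. DESeq2 gave Fasn an adjusted p of 0.000376 and Acss2 one of 0.000904, and leaving out the nucleus with the most reads of each gene gave 0.0143 and 0.0369 in edgeR. Without the NeuN+ WT library Scd2 had an adjusted p of 0.0683 and Srebf1 one of 0.110, and without the NeuN+ Fasn-R1812W library these were 0.0520 and 0.172, so that the calls were lost. With the relaxed nucleus filter, Srebf1 also lost its call, with an adjusted p of 0.0545. The 2 gates differ in their mix of cell types as shown by the marker sums above, and the part of that mix in the differences was not tested; in a pooled library fewer nuclei of a type and less RNA per nucleus cannot be told apart.

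**Figure D2:**
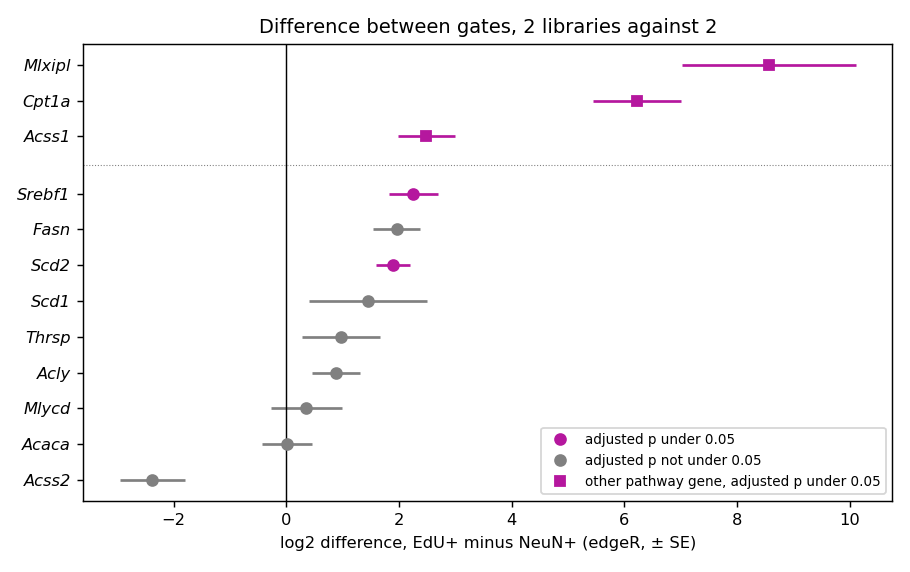
Log2 difference between gates, EdU+ minus NeuN+, from the edgeR fit over 4 libraries. Bars are standard errors derived from the F statistic of that fit. Circles are the 9 tested members and squares the 3 other pathway genes that passed. Srebf1 and Scd2 passed an adjusted p of 0.05, while Fasn at 1.95 and Acss2 at -2.38 did not.

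Around the 10 genes, a list of 60 further genes of the pathway was read in the same fit, of which 58 were tested. Of these 3 passed, all higher in EdU+, and 0 passed as lower. Over all genes tested, 6.72% passed, 3.9% as higher and 2.82% as lower, so the list did not stand out by its count. A positive difference was found for 31 and a negative one for 27, with a median log2 difference of 0.19. Cpt1a, which passes fatty acids into mitochondria and is inhibited by malonyl-CoA, stood at 1.54, 0.712, 79.2 and 80.3 CPM in the library order above. Its log2 difference was 6.22 (SE 0.78, adjusted p = 0.0122). Mlxipl, which encodes the carbohydrate-responsive factor ChREBP, stood at 0.0720, 0.0427, 11.8 and 43.2 CPM and gave 8.56 (SE 1.54, adjusted p = 0.0312); its fitted value depends on the prior count, because it rests on 5 and 3 reads in the NeuN+ libraries. Acss1, the mitochondrial acetate-activating enzyme, stood at 17.8, 19.6, 79.5 and 142 CPM and gave 2.48 (SE 0.51, adjusted p = 0.0442). Acss1 and Acss2, which act on the same substrate in different compartments, thus had levels in opposite order between the gates. Mlxipl and Acss1 lost the call when either NeuN+ library was left out, and Cpt1a kept it in each of the fits tried. By role, 1 of 10 further lipogenic transcription factors, 1 of 8 genes of citrate and acetyl-CoA supply and 1 of 5 genes of malonyl-CoA-sensitive import passed. None passed among 6 genes of SREBP control, 7 of NADPH supply, 10 of acetyl-CoA carboxylase control, 6 of elongation and desaturation and 6 of mitochondrial fatty acid synthesis. At an unadjusted p of 0.05, 9 of the 58 genes passed, beside 21.8% of all genes.

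The nuclei behind these sums were few for most members. After thinning each nucleus to 50000 reads, Fasn had at least 3 reads in 14.6% of NeuN+ WT nuclei (95% Clopper-Pearson interval 10.9 to 19.0), in 11.3% (7.95 to 15.4) of those of NeuN+ Fasn-R1812W, in 12.6% (7.96 to 18.6) of those of EdU+ WT and in 14.1% (10.6 to 18.2) of the EdU+ Fasn-R1812W nuclei. These shares overlapped in their intervals. The median thinned level in those nuclei was 190, 180, 960 and 400 CPM. The shares thus did not separate the gates, while the level in the nuclei that carried Fasn was higher in both EdU+ libraries than in both NeuN+ libraries. Without thinning, at least 1 read was found in 22.3%, 18.9%, 15.6% and 34.5% of nuclei. In EdU+ Fasn-R1812W, 62 of the 120 nuclei with a Fasn read had only 1 or 2 reads, compared with 4 of 26 in EdU+ WT.

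The share of carrying nuclei and the level in them were also read over all genes. Over the 5985 genes with at least 10 such nuclei in both WT libraries, the share of nuclei with at least 3 thinned reads was a median 0.431 times as high in EdU+ as in NeuN+, and the level in those nuclei 2.30 times as high. In Fasn-R1812W these medians over 9084 genes were 0.378 and 2.35. For Fasn the ratio of shares was 0.858 in WT and 1.25 in Fasn-R1812W, above those medians. Its ratio of levels was 5.05 in WT, above the median of all genes, but 2.22 in Fasn-R1812W, slightly below it. Srebf1 had share ratios of 1.41 and 1.61 and level ratios of 4.80 and 3.40. Scd2 had share ratios of 1.16 and 1.03 and level ratios of 4.43 and 4.11. In its share ratios Acly lay between, at 0.646 and 0.649, and Acaca followed the median of all genes at 0.465 and 0.419. Acss2 was at 0.150 in Fasn-R1812W, since 16 of 348 EdU+ nuclei but 92 of 301 NeuN+ nuclei had 3 reads. The median number of genes per nucleus differed between the gates in the same direction as these shares, and its part in them was not tested.

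**Figure D3:**
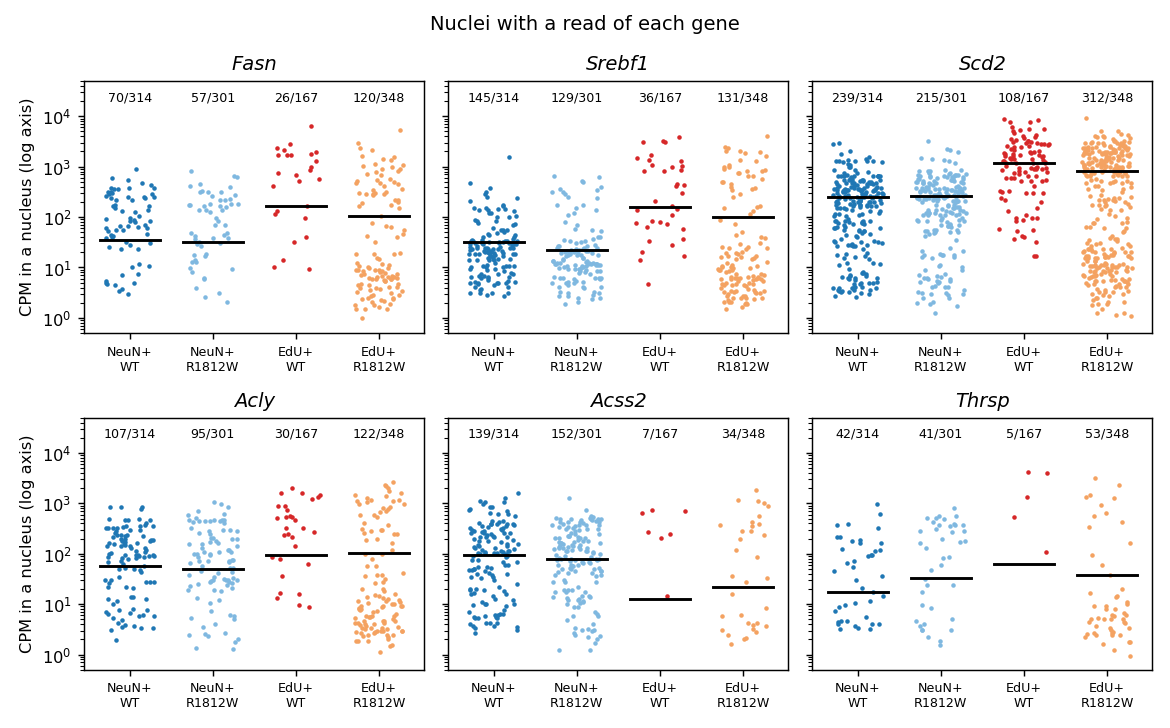
CPM of 6 genes in each kept nucleus with a read, on a log axis, with the number of such nuclei over all kept nuclei above each column and the pooled CPM as a black line. In EdU+ Fasn-R1812W, Fasn, Acly and Scd2 show a separate lower band of nuclei with about 10 CPM or less, which is thinner in the other libraries. Low values of Srebf1 are not particular to that library. Only 1 or 2 Srebf1 reads were found in 72 of its 131 nuclei with a read and in 63 of 129 in NeuN+ Fasn-R1812W.

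Single nuclei also held large parts of the pooled reads. The top nucleus held 10.6%, 27.2%, 25.5% and 22.1% of the Fasn reads in the 4 libraries, and only 3.86% to 12.7% of those of Scd2. It held 53.1% and 57.1% of the Mlycd reads in the 2 EdU+ libraries. In EdU+ WT, Thrsp was read in 5 nuclei and Mlycd in 4, so the EdU+ levels of these genes rest on a handful of nuclei.

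Nuclei of each gate were clustered without the members and the pathway list, and clusters were named from marker lists where they met the naming rule. In all, 9 classes with at least 10 nuclei in both libraries of their gate were compared, as a description with no test. Fasn was highest in oligodendrocyte precursor-like nuclei, with 243 CPM in the 113 WT nuclei (95% Poisson interval 233 to 253) and 151 CPM in the 187 Fasn-R1812W nuclei (147 to 154). Both values lay above those of every other class, the next being a dividing cluster led by Mki67 and Top2a with 72.0 and 125 CPM. Without their top nucleus the precursor-like nuclei had 176 and 105 CPM, the second of which is below the full value of the dividing cluster in that library. With the top nucleus left out of each class, the next values were 32.3 CPM in granule neuron-like nuclei of WT and 88.9 CPM in neuroblast-like nuclei of Fasn-R1812W. In granule neuron-like nuclei Fasn stood at 38.7 and 40.6 CPM, in CA1 pyramidal neuron-like nuclei at 22.8 and 32.1 CPM, and in GABAergic interneuron-like nuclei at 29.2 and 17.3 CPM. A further NeuN+ cluster led by Slc17a6 and Cdc14a had 70.1 and 11.7 CPM, and from the second class down each class overlapped its neighbour in the order. Fasn was not high in all nuclei with precursor markers. A cluster led by Manea and Lims2, left unnamed by the naming rule, had a summed precursor list of 22430 CPM in its 15 WT and 19540 CPM in its 26 Fasn-R1812W nuclei, beside 19140 and 20000 CPM in the precursor-like class, but only 6.68 and 55.6 CPM of Fasn. Its mean log2 fold for the precursor list was 0.95, within the 0.84 to 1.17 of the clusters named precursor-like. It was left unnamed because 1 leading gene came from another list and 0 from the precursor list. The Fasn peak thus depends in part on that rule. The levels also depended on how nuclei were grouped. Naming each nucleus by its marker score gave 37 precursor-like nuclei in EdU+ WT with a Fasn level of 428 CPM and 73 in EdU+ Fasn-R1812W with 73.6 CPM. At a clustering resolution of 2 the values were 138 and 105 CPM, and a separate committed oligodendrocyte precursor-like class had 276 CPM in 12 WT nuclei and 753 CPM in 15 Fasn-R1812W nuclei, or 138 and 79.8 CPM without its top nucleus.

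Srebf1 followed the same order at its top. It stood at 235 and 143 CPM in oligodendrocyte precursor-like nuclei, above all other class values, which ran from 4.96 to 69.0 CPM, and without the top nucleus at 178 and 115 CPM. Under the other groupings its precursor-like values ran from 170 to 326 CPM in the WT library and from 66.7 to 137 CPM in the other. Neuroblast-like nuclei had 32.6 and 4.96 CPM of Srebf1 and neither granule neuron-like value exceeded 26.1 CPM. Scd2 was high in several classes of the EdU+ gate. Precursor-like nuclei had 1351 and 1219 CPM, the clusters led by Manea and Lims2 and by Mki67 and Top2a had between 716 and 1326 CPM, and neuroblast-like nuclei had 418 and 503 CPM. Every compared class of the NeuN+ gate lay below these, from 149 to 379 CPM. Scd2 was at 209 CPM in the 60 microglia-like nuclei of EdU+ Fasn-R1812W, where 1 nucleus held 50.3% of its reads, and at 13.1 CPM in the 14 leukocyte-like nuclei of that library, neither above the range of the NeuN+ classes.

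Thrsp was set apart in the opposite way. In the cluster led by Mki67 and Top2a it stood at 447 and 337 CPM, against 0.941 and 1.02 CPM in oligodendrocyte precursor-like nuclei, where Fasn and Srebf1 peaked. In the dividing cluster, 3 of 20 nuclei in WT and 12 of 38 in Fasn-R1812W had at least 1 Thrsp read. Among all 53 EdU+ Fasn-R1812W nuclei with a Thrsp read, 40 had only 1 or 2, compared with 0 of 5 in EdU+ WT. The dividing cluster's values were 216 and 248 CPM without the top nucleus. This cluster scored highest for the astrocyte list (mean log2 fold 0.87), and the rule on mitosis genes left it unnamed. It held 9506 and 6038 CPM of the astrocyte list and 9672 and 11870 CPM of the precursor list. A cluster led by the same genes was found again with 30 components, with 16 WT and 30 Fasn-R1812W nuclei. At a resolution of 2 a cluster was led by Top2a and Rrm2, with 10 and 16 nuclei. The remaining groupings had no cluster led by these genes. The Thrsp level is given here for the main grouping only. In granule neuron-like nuclei Thrsp stood at 23.6 and 63.8 CPM, a range that overlapped that of the CA1 pyramidal neuron-like nuclei. Acss2 stood at 115 and 97.2 CPM in granule neuron-like nuclei and between 40.0 and 106 CPM in the other NeuN+ classes, 2 of which overlapped the granule range. In precursor-like nuclei it stood at 17.4 and 32.9 CPM. Neuroblast-like nuclei had 0 Acss2 reads in both libraries, which allows up to 2.08 CPM in the 13 WT nuclei and 0.620 CPM in the 23 Fasn-R1812W nuclei (3 reads each). For Acly each class range overlapped that of its neighbour in the order, and for Acaca all but 1 did.

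**Figure D4:**
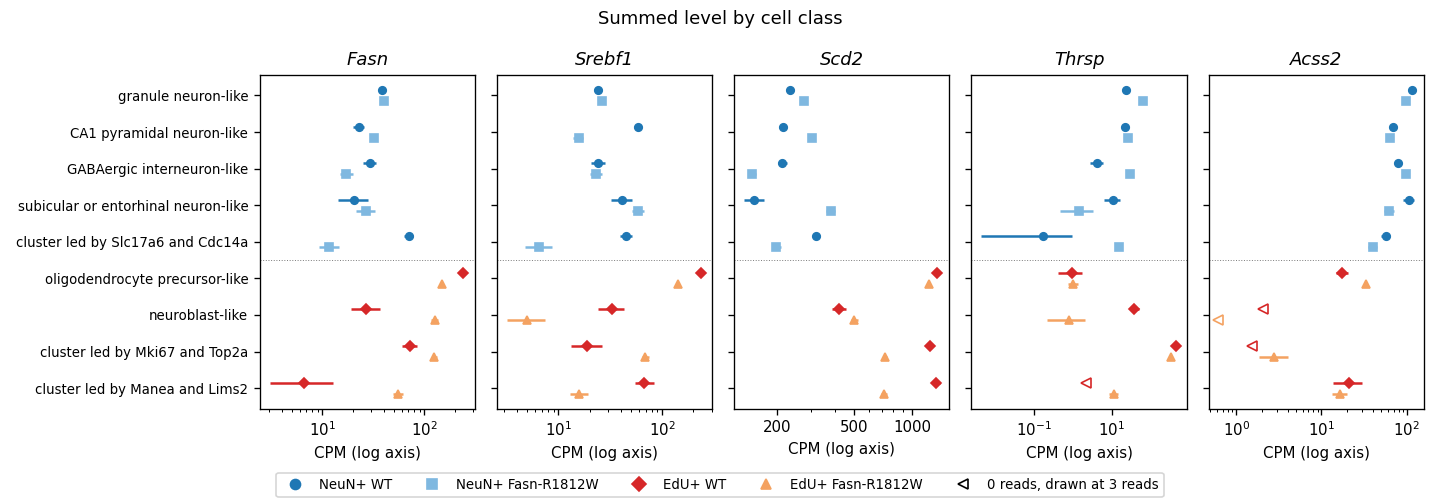
Summed CPM of Fasn, Srebf1, Scd2, Thrsp and Acss2 in 9 cell classes, NeuN+ classes above the dotted line and EdU+ classes below it, on log axes with 95% Poisson intervals. Fasn and Srebf1 are highest in oligodendrocyte precursor-like nuclei, Thrsp in the cluster led by Mki67 and Top2a, and Acss2 in the NeuN+ classes.

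Across the 18 class-by-library sums, the members did not vary as 1 block. Fasn had a Pearson r of 0.52 with Scd2, -0.36 with Acaca and -0.39 with Acss2, and the closest pairs were Scd1 with Srebf1 at 0.57 and Acly with Mlycd at 0.53. Among 8923 genes with a mean of at least 20 CPM, those most like Fasn were Tmpo (0.81), Cnot6 (0.79), Add1 (0.79), Gab1 (0.78) and Ccnd3 (0.77). These coefficients describe sums that share 4 libraries, their depth and their 2 gates.

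The genotypes were compared in the same fit, with gate as the other term. No member passed, and none had an unadjusted p under 0.05. Over all genes edgeR called 0 of 16015 (0%), with 239 at an unadjusted p under 0.05 (1.49%), whereas DESeq2 called 54, none of them a member. Fasn gave a log2 difference of Fasn-R1812W minus WT of -0.40 (SE 0.41, adjusted p = 0.9999), Srebf1 -0.55 (SE 0.41) and Scd2 -0.22 (SE 0.29). The median was -0.22 over the members and 0.05 over all genes.

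Within a gate there was 1 library per genotype, so ratios there have no replicate check and no test. In the NeuN+ pair, 8 members reached 10 CPM and a read in 10% of nuclei, and 0 of them were 2-fold apart, beside 6.2% of all genes (3.17% higher and 3.03% lower in Fasn-R1812W). Thrsp had the largest ratio, from 17.6 CPM in the WT library to 33.8 CPM in its counterpart. Fasn was nearly level at 35.3 and 31.7 CPM, a log2 ratio of -0.15 (95% counting interval -0.24 to -0.07). In the EdU+ pair, 6 members met those limits and again 0 were 2-fold apart, beside 25.4% of all genes (17.3% higher and 8.05% lower). Thrsp met these limits in EdU+ only through the library rich in low values. With at least 3 thinned reads in 10% of nuclei as the limit, 5 members remained without Thrsp and 0 of them were 2-fold apart, beside 14.1% of all genes. For the NeuN+ pair that limit kept 6 members, 0 of them 2-fold apart, beside 3.97% of all genes. Fasn, Srebf1, Scd2, Thrsp and Acaca were lower in EdU+ Fasn-R1812W, by log2 ratios of -0.68, -0.65, -0.56, -0.72 and -0.87, and Acly was slightly higher at 0.14. Acacb, Acss2, Scd1 and Mlycd did not meet the limits in EdU+. Of these, Scd1 was more than 2-fold lower in Fasn-R1812W, with a log2 ratio of -1.08 (95% counting interval -1.25 to -0.91). It was -0.38 without the top nucleus.

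The EdU+ ratio of Fasn depended on which nuclei were kept. Under the relaxed filter EdU+ WT held 352 nuclei in place of 167 and its Fasn level was 99.3 CPM, beside 105 CPM in EdU+ Fasn-R1812W, a log2 ratio of 0.08. Srebf1 then had 86.1 and 102 CPM (0.24), and Acss2 43.1 and 22.3 CPM (-0.92 in place of 0.72). Scd2 kept its sign at -0.64. The EdU+ classes did not share 1 direction either. Fasn was lower in Fasn-R1812W in precursor-like nuclei (243 and 151 CPM) but stood at 27.0 and 127 CPM in neuroblast-like nuclei, at 72.0 and 125 CPM in the cluster led by Mki67 and Top2a and at 6.68 and 55.6 CPM in that led by Manea and Lims2. In EdU+ WT the Fasn reads of each of these last 3 classes came from 1 nucleus. The 16 genes of the leukocyte list summed to 0.523 CPM in the WT precursor-like nuclei, where 13 of them were at 0, and to 2140 CPM in those of Fasn-R1812W, where 0 were. In the latter 2 nuclei held 97.6% of these reads, and without them Fasn stood at 152 CPM. The makeup of the pair differed as well, with microglia-like nuclei making up 3.59% of kept nuclei in EdU+ WT and 17.2% in EdU+ Fasn-R1812W; microglia-like nuclei of the latter had 7.52 CPM of Fasn. The part of these shares in the pooled ratio was not tested.

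**Figure D5:**
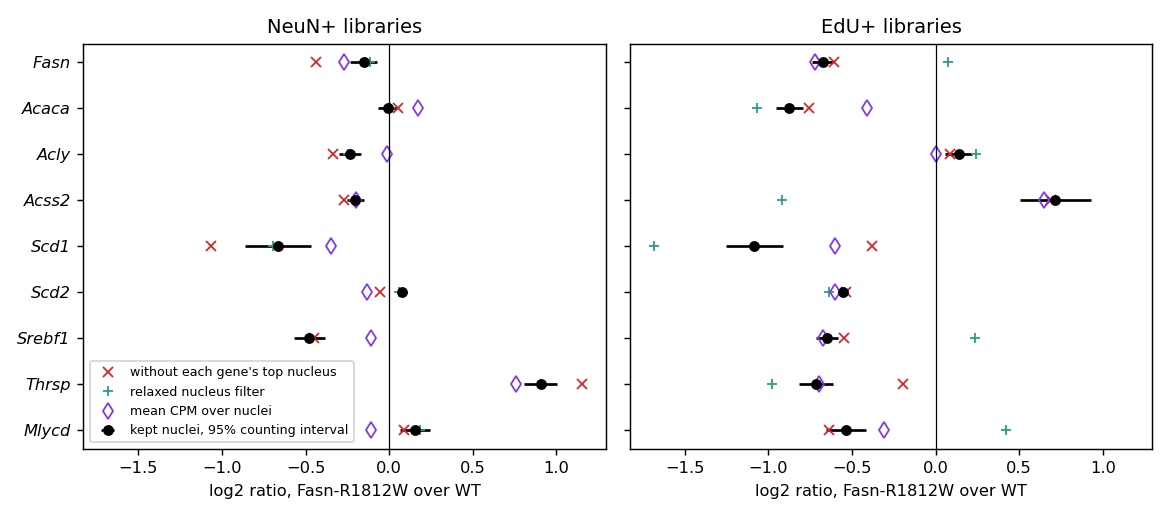
Log2 ratio of Fasn-R1812W over WT for 9 members (Acacb left out for its low level) in the NeuN+ and the EdU+ pair of libraries, with 95% counting intervals and the ratio under 3 other treatments of the nuclei. In EdU+, the relaxed filter (green) moves Fasn from -0.68 to 0.08 and Acss2 from 0.72 to -0.92, while Scd2 stays near -0.6.

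Reads of some members could not be assigned with certainty. Of the 50-base stretches of the longest Acaca transcript, 52.6% also occur in the processed pseudogene Gm5182, which was not among the table's genes, so the Acaca count depends on how reads with more than 1 place were treated. For Acss2 the share found in transcripts of other genes was 8.3%, the largest part of it (4.94%) in Acss2os on the opposite strand. It was 4.01% for Scd2, 4.66% for Scd1, 1.41% for Srebf1 and 0.67% for Thrsp. For Fasn, Acacb, Acly and Mlycd it was 0%. Exons of Acss2 overlap those of Ggt7 and Gss on the opposite strand, and exons of Srebf1 overlap Rai1. Whether counting used strand is not given in the sources used here. In the library order, Ggt7 stood at 121, 148, 60.1 and 59.1 CPM and Gss at 28.2, 37.6, 0.200 and 1.12 CPM, both in the same order between the gates as Acss2. Rai1 stood at 117, 159, 64.3 and 60.1 CPM, in the opposite order to Srebf1.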

How the data were processed

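Expression was measured in 4 Smart-seq2 libraries of sorted nuclei, 1 per gate and genotype; the authors deposited raw read counts, whole numbers per gene and well. Per the submitters' processing notes, Trimmomatic 0.36 and STAR 2.5.3a were used with build GRCm38.p5; no source used here gives the counting program, annotation or strand setting. The labels name no separate animals, so p-values measure only the spread between these libraries. The design states 382 nuclei per library and the tables hold 384 wells; embryonic nuclei were not analysed here.

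Counts of kept nuclei were summed per library and fitted with edgeR 4.0.16 (R 4.3.3) quasi-likelihood on genes with at least 1 CPM in 2 libraries, with TMM scaling, gate and genotype as terms and Benjamini-Hochberg adjustment over all genes; 1 residual degree of freedom remained. The SE values given are not an output of edgeR but were derived as the absolute log2 difference divided by the square root of F. DESeq2 1.42.0 was an alternative. The fit was also run on simulated data with known folds. Their spread was set smaller than the common dispersion of 0.515 estimated from these libraries. That run therefore does not show how well the fit works at the spread seen here. Clusters were made with scanpy 1.11.5 (2000 variable genes, 20 components, 15 neighbours, Leiden at resolution 1). A name needed a mean log2 fold of 0.8, 3 markers 2-fold up, no more markers of another list than of its own among the 10 leading genes, and no lead by mitosis genes; the 0.8 limit and the mitosis rule were set after the clusters were seen. No doublet caller was run. A limit of 3 thinned reads for the ratio counts and the removal of 2 leukocyte-rich nuclei were alternatives chosen after seeing the data. Poisson and Clopper-Pearson intervals (95%) and limits of 3 reads cover counting error only, since PCR reads are not independent molecules.

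Members and lists were chosen with earlier results of these data known. Named genes are the 10 members, the pathway genes past the threshold between gates (12 at most, by size) and the 5 genes most like Fasn.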

Additional observations from a re-analysis of the deposited data

Results flagged for a closer look

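For 5 genes the Fasn-R1812W over WT ratio went opposite ways in the 2 gates, with both counting intervals away from 0. The share of all genes that did so was not counted, so this number is not read as a trait of the members. The difference between gates was not tested, since each ratio compares 2 libraries. The log2 ratios in NeuN+ and EdU+ were -0.23 and 0.14 for Acly, -0.20 and 0.72 for Acss2, 0.074 and -0.56 for Scd2, 0.91 and -0.72 for Thrsp, and 0.15 and -0.54 for Mlycd. For all but Thrsp the opposition was lost under other settings. The EdU+ ratio became -0.92 for Acss2 and 0.42 for Mlycd with the relaxed nucleus filter, and -0.024 for Acly after thinning and -0.041 with no nucleus filter. The NeuN+ ratio became -0.29 for Mlycd after thinning, and for Scd2 -0.16 after thinning and -0.054 without the top nucleus. For Thrsp the signs held in each setting but the strict filter, which left 5 nuclei in EdU+ WT. Its EdU+ ratio shrank from -0.72 to -0.20 without the top nucleus. The EdU+ over NeuN+ ratio of Acaca went opposite ways in the 2 genotypes, at 0.47 in WT and -0.40 in Fasn-R1812W, also untested. The Thrsp and Mlycd values of EdU+ WT come from 5 and 4 nuclei with a read. Counting intervals do not cover differences between animals or nuclei, so they are narrow.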

How the results depend on the processing

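No paired analysis was possible because each gate and genotype had 1 library and the replicate numbers only name them. Between gates, the 1076 genes called became 1881 with the relaxed nucleus filter, 1913 with no nucleus filter, 2081 after thinning, 1908 without each gene's top nucleus and 3504 in DESeq2, and ranged from 479 to 4754 when 1 library was left out. The cause was not tested. The 2 members called became 4 with a gene filter of 10 CPM, after thinning, without the top nucleus, with gate as the only term and in DESeq2, and 1 with the relaxed nucleus filter, and ranged from 0 to 4 when 1 library was left out. The lone remaining library of a group was then assumed to vary like the others. Between genotypes, the 0 genes called became 1 with DESeq2 size factors, 1 without TMM, 3 without a gene filter, 2 after thinning, 2 without the top nucleus and 54 in DESeq2; the members called stayed at 0 in all 9 alternatives. No called gate difference of a member turned its sign. Only 5 nuclei of EdU+ WT passed the strict filter, so its EdU+ ratios were not read. The EdU+ WT library held 36368990 reads in its 384 wells, and the nucleus filter kept 15032576 nuclear-encoded reads in 167 nuclei. In EdU+ Fasn-R1812W it kept 94828240 of 96597804. The small kept part of EdU+ WT, which reflects both depth and this filter, limits every EdU+ value.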
